A study of Mus musculus with 8 samples.

Results

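The genes described are 34 genes of the unfolded protein response and the early secretory pathway, measured in hearts of wild-type mice and of mice with an altered GATA4, with and without the adrenergic drug PE. They were chosen by gene symbol: a gene was measured where a probe set was annotated with its symbol alone, and the probe set with the highest mean over all arrays was used. This gave values for 33 of the 34 genes, among 19938 genes on the array; Kdelr2 had no probe set of its own. By role they are 14 chaperones and folding enzymes, 3 transcription factors, 7 genes of protein degradation, 5 genes of transport (6 with Kdelr2) and 4 targets of the transcription factor ATF4.

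The 8 mice were 9 weeks old and on a C57Bl6 background. The WT untreated group was arrays 1 and 2, and the WT PE group was arrays 3 and 4. The S105A untreated group was arrays 5 and 6, and the S105A PE group was arrays 7 and 8, with 1 animal per array. S105A is GATA4, a transcription factor of heart muscle, with the serine at that position replaced by alanine. PE was delivered under the skin by a pump for 5 days, each day at 100 mg per kg; the labels spell it as a form of pseudoephedrine. The controls are called untreated in the titles, while the protocol names saline. The tissue is given as whole heart in one field and as ventricle in another. Groups of 2 animals, and RNA of a tissue with many cell types, limit each group as a model.

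Proteins that enter the endoplasmic reticulum are folded there by chaperones such as Hspa5 and by disulfide isomerases. When unfolded proteins accumulate, 3 sensors act: ATF6 is cut to release a transcription factor, IRE1 splices Xbp1 mRNA, and PERK slows translation while Atf4 mRNA is translated more. Much of this control is exerted on splicing, cleavage and translation, which a level of mRNA does not measure. In the heart, cardiomyocytes secrete natriuretic peptides, and fibroblasts secrete the collagens of the matrix, through the same pathway.

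Promoter sequences of the members are shown first, because ATF6, XBP1 and ATF4 are known to act through short sites near the start of such genes. RefSeq promoter windows (mouse assembly GRCm38.p6, from 250 bases before to 50 bases after each start) were at hand for 29 of the 34 members. They were searched on both strands for the endoplasmic reticulum stress element ERSE (CCAAT, 9 bases of any kind and CCACG), ERSE-II (ATTGG, 1 base of any kind and CCACG), the unfolded protein response element UPRE (TGACGTGG) and the C/EBP-ATF response element CARE (TGATGNAA). ERSE and ERSE-II both end in CCACG, which also opens the UPRE on its other strand, so that their letters overlap in part. ERSE was found in 9 of the 29 members (Hspa5, Hsp90b1, Pdia6, Calr, Canx, Dnajc3, Creld2, Syvn1 and Derl3), or 31%, against 0.119% of 32851 promoters. ERSE-II was found in Dnajb11 and Herpud1 (0.0365% of promoters), and UPRE in Sec24d, Sec23a and Kdelr3 (0.676%). CARE was found in Herpud1, Trib3, Chac1 and Asns (3.97%). Such genes are already known for these sites, so the shares describe the windows and are not a test.

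The matches below are printed from 5′ to 3′ on the strand of the gene, with 12 flanking bases on each side in lower case and the match in capitals. Hspa5, Pdia6, Creld2 and Canx carry ERSE and differed in their PE values below; Kdelr3 and Sec24d carry UPRE; Chac1 and Asns are targets of ATF4 with CARE; Herpud1 carries ERSE-II.
Hspa5, chr2:34772013-34772055, plus strand: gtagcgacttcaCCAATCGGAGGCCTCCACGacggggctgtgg
Pdia6, chr12:17266479-17266521, plus strand: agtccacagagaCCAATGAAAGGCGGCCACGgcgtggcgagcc
Creld2, chr15:88819508-88819550, plus strand, ERSE read on the opposite strand: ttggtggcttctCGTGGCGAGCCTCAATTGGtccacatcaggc
Canx, chr11:50325788-50325830, minus strand: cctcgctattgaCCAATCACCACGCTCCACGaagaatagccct
Herpud1, chr8:94386365-94386399, plus strand: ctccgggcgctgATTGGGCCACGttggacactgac
Kdelr3, chr15:79516366-79516397, plus strand, UPRE read on the opposite strand: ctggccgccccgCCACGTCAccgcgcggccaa
Sec24d, chr3:123267458-123267489, plus strand: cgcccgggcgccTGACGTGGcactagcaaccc
Chac1, chr2:119351037-119351068, plus strand, CARE read on the opposite strand: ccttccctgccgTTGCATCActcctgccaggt
Asns, chr6:7693213-7693244, minus strand: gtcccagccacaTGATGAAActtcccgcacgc

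Kdelr3 and Edem1 had the highest PE values of all members (below), and their 250 bases before the start are given for comparison. The Kdelr3 sequence holds 1 UPRE, in capitals, and the Edem1 sequence holds none of the 4 motifs.
Kdelr3, chr15:79516158-79516407, plus strand: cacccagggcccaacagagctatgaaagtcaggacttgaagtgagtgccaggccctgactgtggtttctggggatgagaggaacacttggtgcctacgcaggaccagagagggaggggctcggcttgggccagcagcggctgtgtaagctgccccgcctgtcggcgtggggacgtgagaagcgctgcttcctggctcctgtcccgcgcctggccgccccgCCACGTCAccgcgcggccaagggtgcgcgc
Edem1, chr6:108828391-108828640, plus strand: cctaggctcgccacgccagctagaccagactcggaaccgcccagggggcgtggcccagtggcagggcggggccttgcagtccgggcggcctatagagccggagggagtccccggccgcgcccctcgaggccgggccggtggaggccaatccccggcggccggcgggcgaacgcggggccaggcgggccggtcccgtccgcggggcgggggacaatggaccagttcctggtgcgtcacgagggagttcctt

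Facts of the whole set of arrays bear on what follows. Gata4 mRNA lay between 9.92 and 10.16 on the log2 scale over the 8 arrays; its probe set does not see a point substitution, so the genotype labels were not checked by it. On the first principal component, which held 69.5% of the variance, PE arrays 3 (53.3) and 7 (25.1) stood apart from PE arrays 4 (-0.41) and 8 (-4.995) and from the untreated arrays (-20.8 to -16.1). The summed linear level of 7 cardiomyocyte markers was 89753 to 90201 in WT untreated, 74889 to 88838 in WT PE, 89586 to 90726 in S105A untreated and 85965 to 88186 in S105A PE. In the same order, the sum over the atrial genes Myl7, Sln and Myl4 was 366 to 369, 330 to 431, 401.2 to 401.5 and 500 to 559. It was thus highest on both S105A PE arrays. In S105A against WT with PE, Myl4 stood at 0.56, Myl7 at 0.25 and Sln at -0.08. Of 8 fibroblast markers, 8 had a PE difference above 0 averaged over the genotypes (44.0% of all genes). Their sizes differed: Postn 3.06, Col1a1 2.38, Col1a2 2.20, Col3a1 2.09, Lum 1.06, Pdgfra 0.36, Tcf21 0.18 and Dcn 0.14. The summed level of the fibroblast markers was 10139 to 11508 in WT untreated and 15955 to 33626 in WT PE. In S105A it was 9687 to 10094 untreated and 16784 to 26657 with PE. Of 8 macrophage markers, 8 were also above 0, with sums of 4148 to 5011, 6466 to 12035, 3697 to 3782 and 5772 to 9212 in the same order. Of 5 measured plasma and B cell markers, 0 were above 0, and their sums were 255 to 260, 240.3 to 242, 253 to 263 and 221 to 249. The plasma and B cell markers had a mean log2 level of 5.25 to 5.54 per array, below the array medians of 6.18 to 6.23. Whether they were detected was not tested.

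The first question was whether PE changed these genes. Every difference is given as the log2 value with PE less that without, and "averaged" means the mean of the WT and the S105A difference. None of the 33 members passed an adjusted p of 0.05 (limma, Benjamini-Hochberg over 19938 genes) in WT, in S105A or averaged, where 0.00502%, 0% and 0.00502% of all genes did. The smallest adjusted p values among the members were 0.419, 0.765 and 0.275. Most members had a higher mean with PE, in a list chosen with earlier results of these data known. Averaged, 26 of 33 members had a difference above 0 (44.0% of all genes), with a median of 0.23 against -0.02 over all genes. In WT 25 of 33 were above 0 (48.9% of all genes) with a median of 0.17, and in S105A 26 of 33 (43.6%) with a median of 0.31. The WT values rested on array 3: without it 17 of 33 members were above 0 and 16 below, with a median of 0.040. The WT median was 0.10 without array 2 and 0.34 without array 4.

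At an unadjusted p under 0.05, 13 members were higher and 2 lower (Atf6 and Ddit3) with PE averaged over the genotypes, where 9.31% of all genes were higher and 7.44% lower (16.7% in either direction). In WT 4 were higher (Pdia6, Dnajb11, Creld2 and Kdelr3) and 1 lower (Atf4), against 5.99% and 5.76% of all genes (11.7% in either direction). In S105A 12 were higher and 0 lower, against 3.09% and 2.77% (5.86% in either direction). For 9 members each of the 4 PE values exceeded each of the 4 untreated values, as for 6.70% of all genes, and for 2 members, Atf4 and Ddit3, each was lower, as for 6.15%. By genotype, 24 members were above 0 in both, 6 below 0 in both and 3 opposite in sign (Hspa5, Canx and Sec23a). The WT and S105A differences share no array, but PE arrays 3 and 7 both stood apart on the first principal component. The share of all genes with the same sign in both genotypes is not given here. The counts by genotype are thus not shown to be particular to the members.

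**Figure D1:**
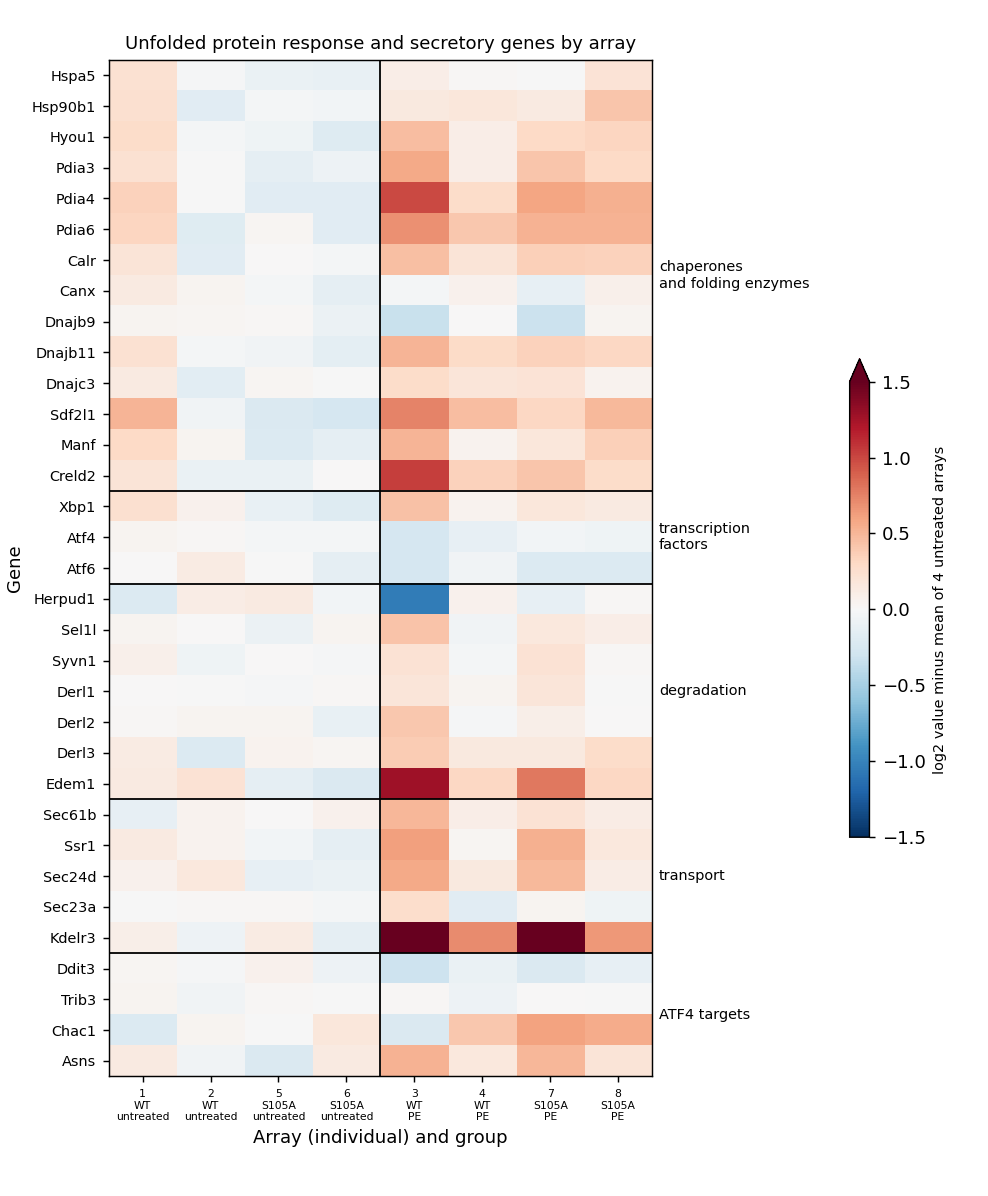
Log2 value of each of 33 genes (rows, by role) on each of 8 arrays (columns), minus the mean of the 4 untreated arrays; the colour scale ends at 1.5. Kdelr3, Edem1, Pdia4 and Creld2 are highest on PE array 3, where Herpud1 is lowest.

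Chaperones and folding enzymes leaned to the higher side with PE. Of 14 genes, 12 were above 0 averaged (44.0% of all genes), with a median of 0.32. Of the 14, 8 were higher at an unadjusted p under 0.05, as were 9.31% of all genes. Among the disulfide isomerases and related genes, Pdia4 stood at 0.60 (SE 0.16) and Pdia6 at 0.53 (SE 0.13). Creld2, a stress-induced protein with isomerase activity, stood at 0.52 (SE 0.16) and Pdia3 at 0.35 (SE 0.12). Their adjusted p values lay between 0.275 and 0.281. The other probe set of Pdia4, with a low mean of 4.74, had -0.01 averaged.

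Dnajb11, a co-chaperone of Hspa5, read 8.45 and 8.19 in WT untreated, 8.72 and 8.50 in WT PE, 8.16 and 8.07 in S105A untreated, and 8.57 and 8.53 in S105A PE. No PE array was as low as any untreated one. The averaged difference was 0.36 (SE 0.09, 1.29-fold, limma unadjusted p = 0.00416, adjusted p = 0.275), the smallest p of the members.

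Pdia6 read 9.42 and 8.92 in WT untreated, 9.79 and 9.50 in WT PE, 9.13 and 8.94 in S105A untreated, and 9.62 and 9.63 in S105A PE. The PE and untreated arrays again did not overlap, the nearest being WT arrays 1 and 4. The difference was 0.48 (SE 0.18) in WT and 0.59 (SE 0.18) in S105A, with an averaged adjusted p of 0.275.

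Sdf2l1, which works with Dnajb11 in keeping client proteins soluble, read 8.54 and 7.98 in WT untreated, 8.77 and 8.49 in WT PE, 7.82 and 7.78 in S105A untreated, and 8.34 and 8.52 in S105A PE. The groups overlapped, because array 1 lay above 3 of the 4 PE arrays. Averaged, the difference was 0.50 (SE 0.13, 1.42-fold, adjusted p = 0.275).

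Hspa5, the main Hsp70 chaperone of the endoplasmic reticulum and the usual marker of the response, read 12.24 and 11.99 in WT untreated, 12.11 and 12.03 in WT PE, 11.92 and 11.90 in S105A untreated, and 12.01 and 12.22 in S105A PE. The highest of the 8 values was untreated array 1. The difference was -0.05 (SE 0.11) in WT and 0.21 (SE 0.11) in S105A, and 0.08 averaged (SE 0.08, adjusted p = 0.631). Hsp90b1, the Hsp90 chaperone of the compartment, had 0.22 (SE 0.11), Calr 0.34 (SE 0.10), and its membrane-bound relative Canx -0.00048 (SE 0.07). Dnajb9 (-0.15, SE 0.11) was the other chaperone below 0. Hyou1, Dnajc3 and Manf lay between 0.18 and 0.29.

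The transcription factors showed no common direction. Xbp1, the target of IRE1, read 10.23 and 10.04 in WT untreated, 10.42 and 10.03 in WT PE, 9.86 and 9.78 in S105A untreated, and 10.15 and 10.11 in S105A PE. WT groups overlapped and S105A groups did not. The differences were 0.09 (SE 0.14) and 0.31 (SE 0.14), and 0.20 averaged (SE 0.10, adjusted p = 0.337). Whether the probe set separates spliced from unspliced Xbp1 mRNA was not tested.

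Atf4 read 7.80 and 7.78 in WT untreated, 7.51 and 7.64 in WT PE, 7.74 and 7.74 in S105A untreated, and 7.72 and 7.70 in S105A PE. All 4 PE values lay below all 4 untreated values, by little in S105A. Its averaged difference was -0.12 (SE 0.06, adjusted p = 0.320). Atf6 read 10.44 and 10.55 in WT untreated, 10.17 and 10.37 in WT PE, 10.42 and 10.30 in S105A untreated, and 10.22 and 10.22 in S105A PE. WT PE array 4 lay above S105A untreated array 6, so the pooled groups overlapped. Its difference over both genotypes was -0.18 (SE 0.07, unadjusted p = 0.0426, adjusted p = 0.292 by limma).

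**Figure D2:**
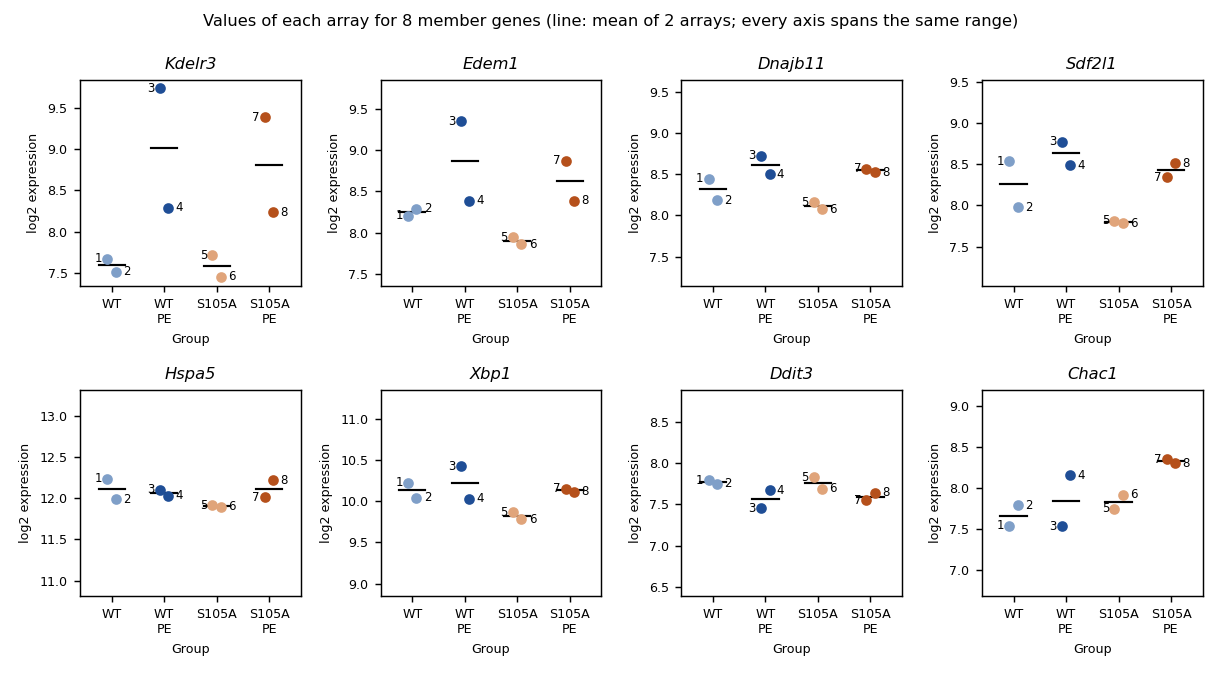
Log2 values of each array (points, numbered) in the 4 groups for 8 genes (WT and S105A without PE are the untreated groups), with a line at the mean of 2 arrays; every vertical axis spans the same range. Kdelr3 and Edem1 are highest on PE arrays 3 and 7, and Hspa5 is highest on untreated array 1.

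Genes of degradation bring misfolded proteins out of the endoplasmic reticulum to the proteasome. Of 7 genes, 6 were above 0 averaged, with a median of 0.12, and 2 were higher at an unadjusted p under 0.05 (44.0% and 9.31% of all genes). Edem1, a lectin that hands misfolded glycoproteins on for degradation, read 8.21 and 8.29 in WT untreated, 9.35 and 8.39 in WT PE, 7.94 and 7.86 in S105A untreated, and 8.87 and 8.39 in S105A PE. All PE values lay above all untreated values, with arrays 3 and 7 far above arrays 4 and 8. The averaged difference was 0.67 (SE 0.22, 1.60-fold, adjusted p = 0.280).

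Derl3, a channel component related to Derl1, read 6.28 and 5.95 in WT untreated, 6.54 and 6.30 in WT PE, 6.21 and 6.18 in S105A untreated, and 6.30 and 6.43 in S105A PE. Its PE values were all higher than its untreated values. Averaged over genotypes the difference was 0.24 (SE 0.10, adjusted p = 0.295). Derl1 read 9.77 and 9.75 in WT untreated, 9.94 and 9.80 in WT PE, 9.75 and 9.78 in S105A untreated, and 9.94 and 9.76 in S105A PE. Arrays 3 and 7 were high and the groups overlapped (averaged 0.10, SE 0.07, adjusted p = 0.455).

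Herpud1, a membrane protein of the degradation complex, was the 1 degradation gene below 0, at -0.27 (SE 0.23, adjusted p = 0.561). The value rested on array 3, at 10.57, where the other 7 arrays lay between 11.42 and 11.76; without array 3 it was 0.007. Sel1l, Syvn1 and Derl2 lay between 0.11 and 0.16.

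Genes of transport move proteins into the endoplasmic reticulum and on to the Golgi. All 5 measured genes were above 0 averaged, with a median of 0.33, and 2 were higher at an unadjusted p under 0.05 (44.0% and 9.31% of all genes). Kdelr3, a receptor that returns escaped chaperones from the Golgi, had the largest difference of the 33 genes. It read 7.67 and 7.51 in WT untreated, 9.74 and 8.29 in WT PE, 7.71 and 7.45 in S105A untreated, and 9.39 and 8.24 in S105A PE. No PE array overlapped with an untreated one, and within the PE groups array 3 was 1.45 above array 4 and array 7 was 1.15 above array 8. The difference was 1.42 in WT (SE 0.52, 2.68-fold), 1.23 in S105A (SE 0.52, 2.35-fold) and 1.33 averaged (SE 0.36, 2.51-fold, limma adjusted p = 0.275).

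Sec24d, a cargo adaptor of the COPII coat, read 8.85 and 8.95 in WT untreated, 9.36 and 8.94 in WT PE, 8.67 and 8.69 in S105A untreated, and 9.27 and 8.90 in S105A PE. Arrays 3 and 7 were high, and arrays 4 and 8 lay among the WT untreated values. Averaged, Sec24d was 0.33 higher (SE 0.12, adjusted p = 0.285). Ssr1, a subunit of the translocon-associated complex, read 10.28 and 10.20 in WT untreated, 10.77 and 10.17 in WT PE, 10.10 and 10.01 in S105A untreated, and 10.68 and 10.31 in S105A PE. It showed the same 2 high arrays (averaged 0.33, SE 0.15, adjusted p = 0.307). Sec61b, of the translocation channel, had 0.23, and its other probe sets 0.11 and 0.12; the coat gene Sec23a had 0.02.

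Targets of ATF4 were mixed, 2 above and 2 below 0. Ddit3, the gene of the death-related factor CHOP, read 7.79 and 7.75 in WT untreated, 7.45 and 7.67 in WT PE, 7.83 and 7.69 in S105A untreated, and 7.55 and 7.64 in S105A PE. All PE values lay below all untreated values. For Ddit3 the averaged difference was -0.19 (SE 0.07, unadjusted p = 0.0376, adjusted p = 0.287 by limma).

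Chac1, a glutathione-degrading enzyme, read 7.54 and 7.79 in WT untreated, 7.54 and 8.16 in WT PE, 7.75 and 7.92 in S105A untreated, and 8.35 and 8.30 in S105A PE. Array 3 was as low as the lowest untreated array, while the other 3 PE arrays were above all untreated ones. The averaged difference was 0.34 (SE 0.14, adjusted p = 0.299). Asns, the asparagine synthetase, read 6.75 and 6.56 in WT untreated, 7.14 and 6.77 in WT PE, 6.41 and 6.76 in S105A untreated, and 7.12 and 6.81 in S105A PE. The groups did not overlap, though arrays 4 and 6 were close (averaged 0.34, SE 0.13, adjusted p = 0.287). Trib3, a pseudokinase, had -0.01 (SE 0.06).

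**Figure D3:**
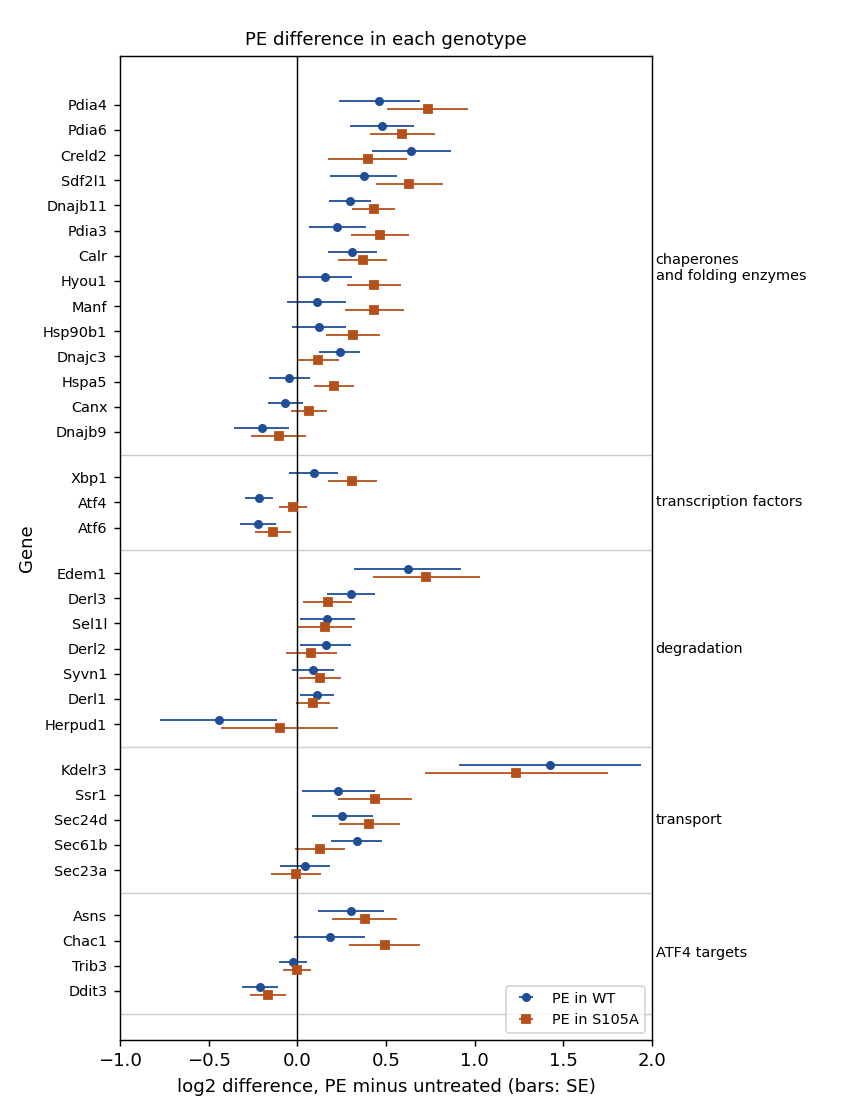
Log2 difference between PE and untreated hearts (horizontal axis, bars SE) of each gene in WT and in S105A, by role. Kdelr3 lies farthest to the right in both genotypes, at 1.42 and 1.23, and most bars of the 2 genotypes overlap.

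The PE values were also read by motif. The 9 genes with ERSE, among them Hspa5 and Pdia6 printed above, had a median averaged difference of 0.22, from -0.00048 to 0.53. The 12 genes with a promoter window and none of the 4 motifs, among them Edem1, also had a median of 0.22, from -0.19 to 0.67. The 3 genes with UPRE ranged from 0.02 (Sec23a) to 1.33 (Kdelr3). These are descriptions of letters in a window.

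The arrays within the PE groups differed among themselves, and the lists did not all follow 1 pattern. The 5 transport genes were all higher on array 3 than on array 4 and on array 7 than on array 8, with median gaps of 0.43 and 0.37. Of the 14 chaperones, 11 were higher on array 3 than on array 4 (median 0.27), but 6 were higher on array 7 than on array 8 (median -0.01). The share of all genes with such gaps is not given here, and arrays 3 and 7 also stood apart on the first principal component. These counts are therefore not shown to be particular to the members. Relative to the mean of the untreated arrays, the median chaperone stood at 0.48 on array 3, 0.18 on array 4, and 0.31 on both S105A PE arrays. On the untreated arrays 1, 2, 5 and 6 it stood at 0.23, -0.03, -0.06 and -0.13, so that PE array 4 lay below untreated array 1 and the groups overlapped. The median of 15 other folding genes (a pathway list below) stood at 0.62, 0.12, 0.49 and 0.12 on arrays 3, 4, 7 and 8. The median degradation gene stood at 0.38, 0.04, 0.16 and 0.02 on them. Both lists were higher on arrays 3 and 7, so the chaperone pattern was not that of all folding genes. The median fibroblast marker stood at 2.33, 1.01, 1.92 and 0.91 on arrays 3, 4, 7 and 8, and the median macrophage marker at 1.55, 0.73, 1.19 and 0.48. The median marker of dividing cells stood at 2.24, 0.96, 2.37 and 0.74 on these arrays. Of the 4 measured genes of this list, 4 were higher at an unadjusted p under 0.05 averaged, as were 9.31% of all genes. The median smooth muscle marker stood at 1.03, 0.17, 0.46 and 0.0013. Its genes did not share a direction: averaged, Cnn1 had 1.41, Tagln 0.77, Acta2 0.05 and Myh11 -0.17. On arrays 3, 4, 7 and 8 the median cardiomyocyte marker stood at -0.43, -0.03, -0.11 and -0.03. The median endothelial marker stood at -0.37, -0.14, -0.19 and 0.0025, and that of 2 measured erythroid genes at -1.26, -0.87, -0.72 and -0.54. What part these cells have in the members' differences was not tested. In RNA of whole tissue, more cells of a type and more RNA per cell cannot be told apart.

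**Figure D4:**
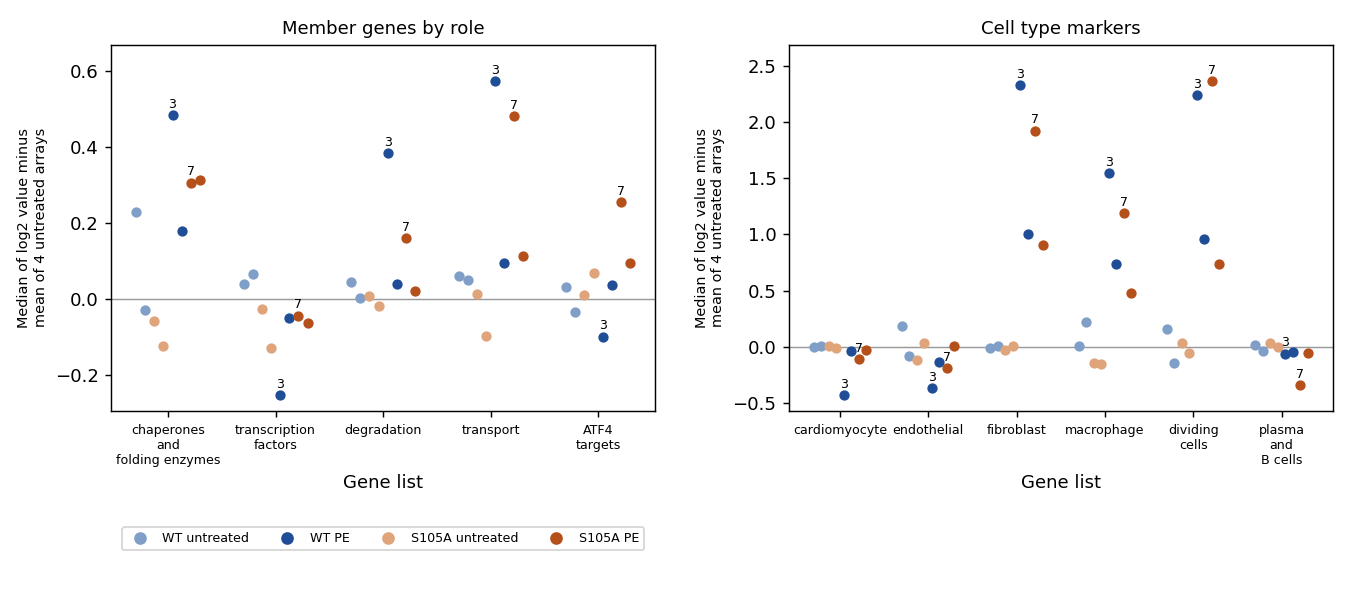
Median over the genes of a list of the log2 value minus the mean of the 4 untreated arrays, 1 point per array; left, the genes by role, right, cell type markers; arrays 3 and 7 are numbered. Transport genes and fibroblast markers are highest on arrays 3 and 7, while the 2 S105A PE arrays coincide at 0.31 for the chaperones.

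Leaving out arrays decided several values. Without arrays 3 and 7, which leaves 1 PE array per genotype and assumes that it varies like the other groups, 14 of 14 chaperones were above 0 averaged with a median of 0.24. By genotype the count was then 8 of 14 in WT, with a median of 0.12, and 14 of 14 in S105A, with a median of 0.41, where array 8 was the PE array left. The transport median was then 0.10 and the degradation median 0.03. Kdelr3 was at 0.68 and passed the threshold (adjusted p = 0.0488), as did 0.687% of all genes. Without array 4 alone, 18 members passed averaged and 7 in WT, in fits where 20.7% and 17.8% of all genes passed. The count at an unadjusted p under 0.05 also moved with single arrays. Here and below, no share of all genes is given beside the unadjusted counts of such fits. They show how far the result moved and are not a result about the members. In S105A the 12 members became 3, 1, 4 and 6 without array 5, 6, 7 or 8. In WT the 5 members became 0, 1 and 23 without array 2, 3 or 4, 2 without array 5 or 6, and 3 without array 7 or 8. Averaged, the 15 members became 7, 24, 9 and 8 without array 2, 4, 5 or 7.

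Other genes of the pathway were taken from lists of 82 genes, of which 76 were measured. These lists were also chosen with earlier results of these data known, so their counts are not separate support. Averaged, 61 of 76 were above 0 (44.0% of all genes) with a median of 0.16. At an unadjusted p under 0.05, 23 were higher and 1 lower (9.31% and 7.44% of all genes), and 0 passed the adjusted threshold by limma. Among folding enzymes (14 of 15 above 0), P4hb, the disulfide isomerase that is also a subunit of collagen prolyl hydroxylase, had 0.68 (SE 0.21), Pdia5 0.88 (SE 0.25) and the Hsp70 relative Hspa13 0.26 (SE 0.08). Among sensors and regulators (10 of 13), Creb3l1, a membrane-bound factor known for collagen gene control, had 0.80 (SE 0.21), the stress factor Atf3 0.60 (SE 0.10, adjusted p = 0.275) and the antioxidant factor Nfe2l2 0.31 (SE 0.10).

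Among the other degradation genes (6 of 9 above 0), Edem2 had 0.34, the lectin Os9 0.36 and Erlec1 0.14. Among the other transport genes (22 of 25), the signal peptidase subunits Spcs3 and Spcs1 had 0.80 (SE 0.22) and 0.22 (SE 0.07), and the channel subunit Sec61a1 0.49 (SE 0.17). Among the other ATF4 targets (9 of 14), the amino acid transporter genes Slc7a5 and Slc3a2 had 0.72 (SE 0.19) and 0.24 (SE 0.07), while Stc2 had -0.35 (SE 0.11). The smallest adjusted p of any of these genes was 0.275.

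**Figure D5:**
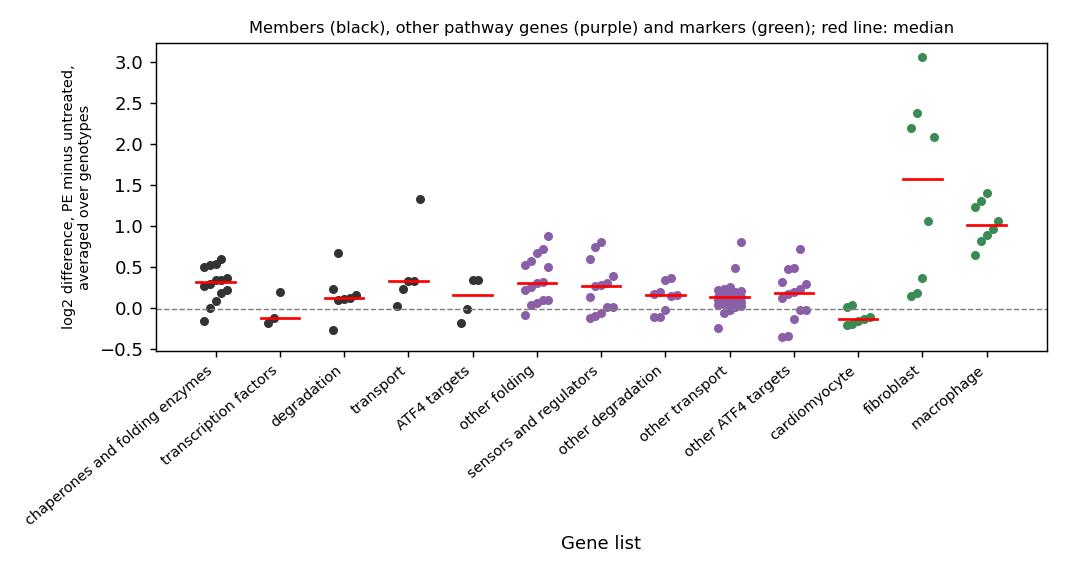
Log2 difference between PE and untreated hearts, averaged over genotypes, of single genes (points) by list, with the list's median in red and the median of all genes, -0.02, as a dashed line. Secretory lists lie around 0.1 to 0.3. Fibroblast markers have a median of 1.57 and run from 0.14 to 3.06.

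The second question was whether the genotype mattered. The test of the difference between the PE effects (S105A minus WT) gave 0 members at an adjusted p of 0.05, and 0 at an unadjusted p under 0.05, where limma had 0.903% of all genes higher and 1.52% lower (2.42% in either direction) and 0% past the adjusted threshold. Of 33 members, 24 were above 0 (47.5% of all genes), with a median of 0.11. Single arrays decided this: without array 1, 17 of 33 were above 0 with a median of 0.0018, and without array 4, 15 of 33 with a median of -0.028. The 8 chaperones with an unadjusted p under 0.05 in S105A and the 3 in WT are therefore not shown to differ in their response. The member with the smallest p was Atf4, at 0.19 (SE 0.11, unadjusted p = 0.139, adjusted p = 1.00 by limma). Without array 2, 3 or 4 the unadjusted count was 1, 7 or 4.

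Without PE, 26 of 33 members lay lower in S105A than in WT and 7 higher (50.9% of all genes were higher), with a median of -0.07. Without array 1 the counts were 20 lower and 13 higher, with a median of -0.04. By limma, 0 passed the adjusted threshold (0% of all genes). Sdf2l1 alone had an unadjusted p under 0.05, at -0.46 (SE 0.19, unadjusted p = 0.0471, adjusted p = 0.962), where 2.43% of all genes were higher and 2.53% lower (4.96% in either direction). Leaving out array 1, 5, 6, 7 or 8 gave 0 such members, leaving out array 2 gave 3, and leaving out array 3 or 4 gave 4. Of the 14 chaperones, 13 were below 0, with a median of -0.19. In all 14, WT array 1 lay above WT array 2, with a median gap of 0.29, and without array 1 the count was 9 of 14 below 0 and the median -0.08.

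With PE, 14 of 33 members were above 0 in S105A against WT (46.9% of all genes), with a median of -0.02. That median was 0.10 without array 3 and -0.17 without array 4. By limma, 0 passed the adjusted threshold (0% of all genes) and 0 had an unadjusted p under 0.05, where 1.25% of all genes were higher and 1.43% lower (2.68% in either direction). Without array 4 the counts were 2 and 10, where 3.57% of all genes passed the adjusted threshold. Chac1 was nearest, at 0.48 (SE 0.20, unadjusted p = 0.0508, adjusted p = 0.989). The genotype comparison with PE uses the same arrays as the PE comparisons, so its values are not separate measurements.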

How the data were processed

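RNA of 8 mouse hearts was hybridized to 1 Affymetrix array each. The authors deposited log2 expression values, and the submitters' processing notes name RMA as the tool; no version of it is named there. Because RMA evens out the arrays' distributions, a shift shared by most genes would not be seen, and no detection calls were used. The table had 35557 rows, of which 21789 probe sets had 1 symbol, 1621 several and 12147 none; 1 probe set per gene left 19938 genes. With limma 3.58.1 in R 4.3.3, the 8 arrays were fitted together with a mean for each group (4 residual degrees of freedom), two-sided, with Benjamini-Hochberg adjustment over all genes in each of 6 contrasts. P-values rest on the spread between animals within the 4 groups, pooled and moderated with the variance of all genes (2.74 prior degrees of freedom). Arrays outside a comparison thus also enter its p-value. The number of arrays limits the precision. All array values are given for the 3 members per role with the smallest averaged p and for Hspa5, Xbp1, Atf4 and Ddit3, and up to 3 genes are named per pathway list; Canx, Herpud1 and others are named by range or sign. The members and lists were chosen with earlier results of these data known. The fit was run on simulated data with planted changes and noise drawn separately for each gene and array. That setting lacks the split among the PE arrays, so it does not test the fit under such a split. Alternatives were all rows, a filter on the lowest 40% of genes (all 33 members passed it), the mean of probe sets, array weights, a variance that was trended and robust, quantile normalization, only the arrays compared, and leaving out arrays. Figures were drawn with matplotlib 3.10.9.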

Additional observations from a re-analysis of the deposited data

How the results depend on the processing

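No paired analysis was possible because the numbers 1 to 8 name separate animals and no number is shared between groups. The members with an unadjusted p under 0.05 numbered 5 for PE in WT, and 3 with array weights, 1 with only the arrays compared and 2 without arrays 3 and 7. For S105A against WT untreated the number was 1, and 0 with all rows, the low filter or quantile normalization, 3 with array weights, 6 with only the arrays compared and 6 without arrays 3 and 7, where the genotype difference in the PE effect gave 5 and the averaged PE effect 1 past the adjusted threshold (Kdelr3). Leaving out 1 array at a time, the unadjusted counts ran from 0 to 23 (PE in WT), 1 to 16 (PE in S105A), 7 to 24 (averaged), 0 to 7 (difference in the PE effect), 0 to 4 (genotype, untreated) and 0 to 10 (genotype, PE). The adjusted counts ran from 0 to 7 in WT, 0 to 18 averaged and 0 to 2 for the genotypes with PE (Herpud1 and Chac1), each highest without array 4. The medians ran from 0.040 to 0.34 in WT, -0.028 to 0.18 for the difference in the PE effect and -0.17 to 0.10 for the genotypes with PE.

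Some averaged PE differences turned sign, and not only those near 0. In the main fit Herpud1 was at -0.27, Dnajb9 at -0.15, Derl2 at 0.12 and Syvn1 at 0.11. With quantile normalization Canx was 0.020 and Sec23a -0.0047. Without arrays 3 and 7 Canx was 0.072, Dnajb9 0.022, Herpud1 0.040, Syvn1 -0.0036, Derl2 -0.0061 and Sec23a -0.11. Leaving out 1 array, Canx ran from -0.050 to 0.049, Trib3 from -0.038 to 0.0088, Herpud1 from -0.55 to 0.0071 and Sec23a from -0.090 to 0.13. The cause was not tested. Fewer arrays enter the fit where arrays are left out, while quantile normalization kept all of them.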
